A study of Mus musculus with 45 samples.

Results

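The accessible sites described here are the ATACseq peaks of the 4 mouse Hox clusters. A peak was counted as a member when its summit lay in chr6:52.14-52.28 Mb (HoxA), chr11:96.18-96.38 Mb (HoxB), chr15:102.90-103.05 Mb (HoxC) or chr2:74.65-74.78 Mb (HoxD) of the mm10 genome, and 149 of 184964 peaks met this rule. HoxA held 39 of them, HoxB 47, HoxC 31 and HoxD 32. ATACseq uses the Tn5 transposase to cut open chromatin, so the number of fragments over a peak measures how accessible that site was in the population of cells. The cells were mouse embryonic stem cells (mESC) in which both alleles of 1 pluripotency factor carry an FKBP degradation tag that is recognised by the small molecule dTAG-13. SOX2-FKBP cells (IB10 mESC) were sampled untreated and after 0.5, 1, 2, 6 and 24 h with 500 nM dTAG-13, while OCT4-FKBP cells (v6.5 mESC) and NANOG-FKBP cells (E14 mESC) were sampled untreated and after 2, 6 and 24 h. Untreated cells (NT) received DMSO, the medium contained LIF and the MEK and GSK3-β inhibitors for every group, and each group has 2 libraries except the treated NANOG-FKBP groups, which have 3. The SOX2-FKBP and NANOG-FKBP lines both derive from E14, of which IB10 is a subline, and OCT4-FKBP from v6.5. The lines also differ in the tagged gene, so background, line and tag cannot be told apart when untreated OCT4-FKBP cells are compared with the others.

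Hox genes encode homeodomain transcription factors that give cells their position along the head-to-tail axis of the embryo. In each cluster the genes stand in the order in which they are used along the body: the low paralogue numbers act towards the hindbrain and neck, and the high numbers act in the lumbar, tail and limb regions. In pluripotent cells the clusters are known as classic targets of Polycomb repression, with little transcription, and retinoic acid, Wnt signals and the Cdx factors are known to open them from the low-paralogue end during differentiation.

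The 31 libraries held 1817191 to 17575631 counts in peaks. The 3 shallow libraries are replicate 2 of NANOG-FKBP at 2, 6 and 24 h, in which 13.2 to 17.6% of the counts fell in mitochondrial peaks. Summed over 9 peaks at the starts of 7 of 8 embryonic stem cell marker genes, normalised counts were 1922 to 2092 in untreated SOX2-FKBP, 2243 to 2373 in untreated OCT4-FKBP and 2244 in both untreated NANOG-FKBP libraries. Of 6 genes of other lineages (Alb, Myod1, Cd3e, Ins2, Gfap and Tnnt2), 3 had a peak at the start, with sums of 127 to 218 over the untreated libraries. Chromosome 6, which carries HoxA, took 6.05 to 6.15% of the counts in replicate 1 and 7.29 to 7.59% in replicate 2 of OCT4-FKBP, against 4.11 to 5.23% in the libraries of the other lines.

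Below are 4 Hox cluster sites called after OCT4 depletion in HoxB, HoxC and HoxD, shown by the 200 bases around the summit so that their letters can be set beside the changes, on the plus strand of mm10 (GRCm38). Capitals mark matches on either strand to the SOX pattern (CATTGT or CTTTGT) or to the POU pattern (ATGCAAAT or ATGCTAAT), and a match is a description of letters, not a bound site. The first lies in an intron of Hoxd3, chr2:74731089-74731288, and was lost with OCT4.
Hoxd3 intron: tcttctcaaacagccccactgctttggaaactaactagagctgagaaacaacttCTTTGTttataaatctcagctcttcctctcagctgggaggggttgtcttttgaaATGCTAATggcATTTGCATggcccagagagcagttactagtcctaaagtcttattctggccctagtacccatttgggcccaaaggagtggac
The next lies in an intron of Hoxd4, chr2:74719820-74720019, and was also lost with OCT4.
Hoxd4 intron: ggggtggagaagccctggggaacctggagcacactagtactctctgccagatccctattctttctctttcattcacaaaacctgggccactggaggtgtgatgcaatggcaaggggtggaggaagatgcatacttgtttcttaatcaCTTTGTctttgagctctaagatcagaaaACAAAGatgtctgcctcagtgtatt
The third is intergenic beyond Hoxb1, chr11:96374912-96375111, and was lost with both OCT4 and SOX2 although it holds 0 matches to either pattern in this window.
Beyond Hoxb1: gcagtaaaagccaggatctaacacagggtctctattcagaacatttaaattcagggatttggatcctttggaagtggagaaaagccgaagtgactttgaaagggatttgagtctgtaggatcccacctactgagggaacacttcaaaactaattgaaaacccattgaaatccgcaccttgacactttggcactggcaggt
The last is intergenic beyond Hoxc4, chr15:103041672-103041871, and was gained with OCT4 loss.
Beyond Hoxc4: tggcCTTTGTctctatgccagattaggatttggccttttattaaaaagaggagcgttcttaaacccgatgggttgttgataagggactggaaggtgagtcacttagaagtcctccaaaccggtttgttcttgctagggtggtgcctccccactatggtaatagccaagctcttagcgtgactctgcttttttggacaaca
Within these 200-base windows the Hoxd3 site was the 1 Hox peak of 149 with a POU match (0.671%, against 3.35% of all peaks), and 28 Hox peaks held a SOX match (18.8%, against 25.5%).

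Hox cluster peaks were more often at the starts of genes than peaks in general, and were wider and richer in GC. Of the 149, 55 had their summit within 500 bp of an annotated start (36.9%, against 13.2% of all peaks), 24 lay in exons, 34 in introns and 36 between genes. The median width was 906 bp against 636 bp over all peaks, the median GC content 56.5% against 50%, and the median observed-to-expected CpG ratio 0.538 against 0.246. Start peaks in general had these traits, with medians of 1127 bp, 55.7% GC and a CpG ratio of 0.514 over all starts, against 1003 bp, 58.4% and 0.626 at the 55 Hox starts. Over whole peaks, a SOX match was present in 59.1% of Hox peaks and 59.0% of all peaks, and the SOX pattern next to a POU pattern in 0.671% and 0.665%. The octamer ATGCAAAT was found in 2.01% against 4.94%, the CTCF consensus in 5.37% against 12.9%, the Cdx pattern in 30.9% against 26.4%, and the homeobox pattern in 16.1% against 11.6%. The paired retinoic acid half-sites were found in 0% against 0.463%, which says only that these letters were not in the peaks. By the paralogue number of the nearest Hox gene, HoxA had 16 anterior peaks (paralogues 1 to 4), 7 central (5 to 8) and 16 posterior (9 to 13), HoxB 15, 12 and 20, HoxC 3, 10 and 18, and HoxD 16, 1 and 15.

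The untreated lines differed in how accessible the Hox clusters were. Peak counts were put on 1 scale across the 31 libraries (normalised counts), and peaks were tested with edgeR's quasi-likelihood test, with p-values adjusted by Benjamini-Hochberg over the 166430 peaks of that fit, with 147 Hox peaks among them. Per kb of peak, the median Hox level was 34.7 normalised counts in SOX2-FKBP, 83.0 in OCT4-FKBP and 56.5 in NANOG-FKBP, while over all peaks it was 39.2, 35.8 and 36.6. Between untreated OCT4-FKBP and SOX2-FKBP cells, 107 Hox peaks were higher and 4 lower in OCT4-FKBP, with a median log2 difference of 1.22 (138 of 147 positive). The same comparison called 11.8% of all peaks higher and 15.4% lower. Between NANOG-FKBP and SOX2-FKBP, 31 Hox peaks were higher and 0 lower (median 0.64), against 3.41% and 3.61% of all peaks, and between OCT4-FKBP and NANOG-FKBP, 18 were higher and 1 lower (median 0.46), against 3.4% and 5.75%. These comparisons of untreated lines share their libraries, were added after the data were seen, and in bulk samples a larger fraction of cells with an open cluster cannot be told apart from a more open cluster in each cell.

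The higher level in OCT4-FKBP cells was found in every cluster. In HoxA 35 of 39 peaks were higher in untreated OCT4-FKBP than SOX2-FKBP cells (median log2 difference 1.40), in HoxB 32 of 46 (1.19), in HoxC 16 of 31 (0.80) and in HoxD 24 of 31 (1.33), and the 4 lower peaks were all in HoxB. Pooled over the clusters, 43 of 49 anterior peaks were higher (1.47), 25 of 30 central peaks (1.29) and 39 of 68 posterior peaks (0.95). The clusters weigh unequally in these groups, since HoxC, with the lowest median, gave 3 anterior and 18 posterior peaks. Position and cluster were therefore not separated. Position follows the nearest annotated Hox start, so a Hoxa3 site between the Hoxa6 and Hoxa7 start peaks counts as anterior. In the 200 kb on each side of the clusters, 32 of 192 peaks were higher and 17 lower (0.12). At starts of Pax, Lhx, Nkx, Irx, Dlx and sine oculis family genes, which encode other patterning factors, 24 of 47 peaks were higher and 0 lower (0.67), and at all starts 4072 of 23428 (17.4%) were higher (0.22). With a separate offset for each chromosome, chosen after the chromosome 6 share was seen, HoxA kept a median of 1.03 with 22 of 39 peaks higher, and HoxB, HoxC and HoxD had 32, 16 and 26 higher. Without SOX2-FKBP NT replicate 1 the count over the 4 clusters was 68 higher and 1 lower. The count of NANOG-FKBP against SOX2-FKBP fell from 31 to 3 without SOX2-FKBP NT replicate 1, 12 without replicate 2 and 5 without NANOG-FKBP NT replicate 2, and the OCT4-FKBP against NANOG-FKBP count ranged from 2 without OCT4-FKBP NT replicate 1 or NANOG-FKBP NT replicate 1 to 29 without OCT4-FKBP NT replicate 2.

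Summed over each cluster the lines kept this order. In HoxA the untreated libraries held 1541 and 1608 normalised counts in SOX2-FKBP, 3663 and 3813 in OCT4-FKBP, and 2627 and 3168 in NANOG-FKBP, so the 3 lines did not overlap. The OCT4-FKBP over SOX2-FKBP ratio of untreated means was 2.37 in HoxA, 1.90 in HoxB, 1.60 in HoxC and 2.21 in HoxD. Over all 4 clusters, untreated or treated, the sum was 7199 to 8841 in the 12 SOX2-FKBP libraries, 9640 to 12123 in the 11 NANOG-FKBP libraries and 12623 to 16382 in the 8 OCT4-FKBP libraries, and the lines did not overlap at any time. As a ratio to the summed counts of the flanking peaks, the untreated clusters stood at 0.623 ± 0.002 (SD, n = 2) in SOX2-FKBP, 1.02 ± 0.121 in OCT4-FKBP and 0.781 ± 0.101 in NANOG-FKBP. After 24 h it was 0.687 ± 0.0712 (n = 2), 0.985 ± 0.0694 (n = 2) and 0.741 ± 0.0937 (SD, n = 3), and at that time the SOX2-FKBP and NANOG-FKBP libraries overlapped (0.637 to 0.738 and 0.640 to 0.824).

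**Figure D1:**
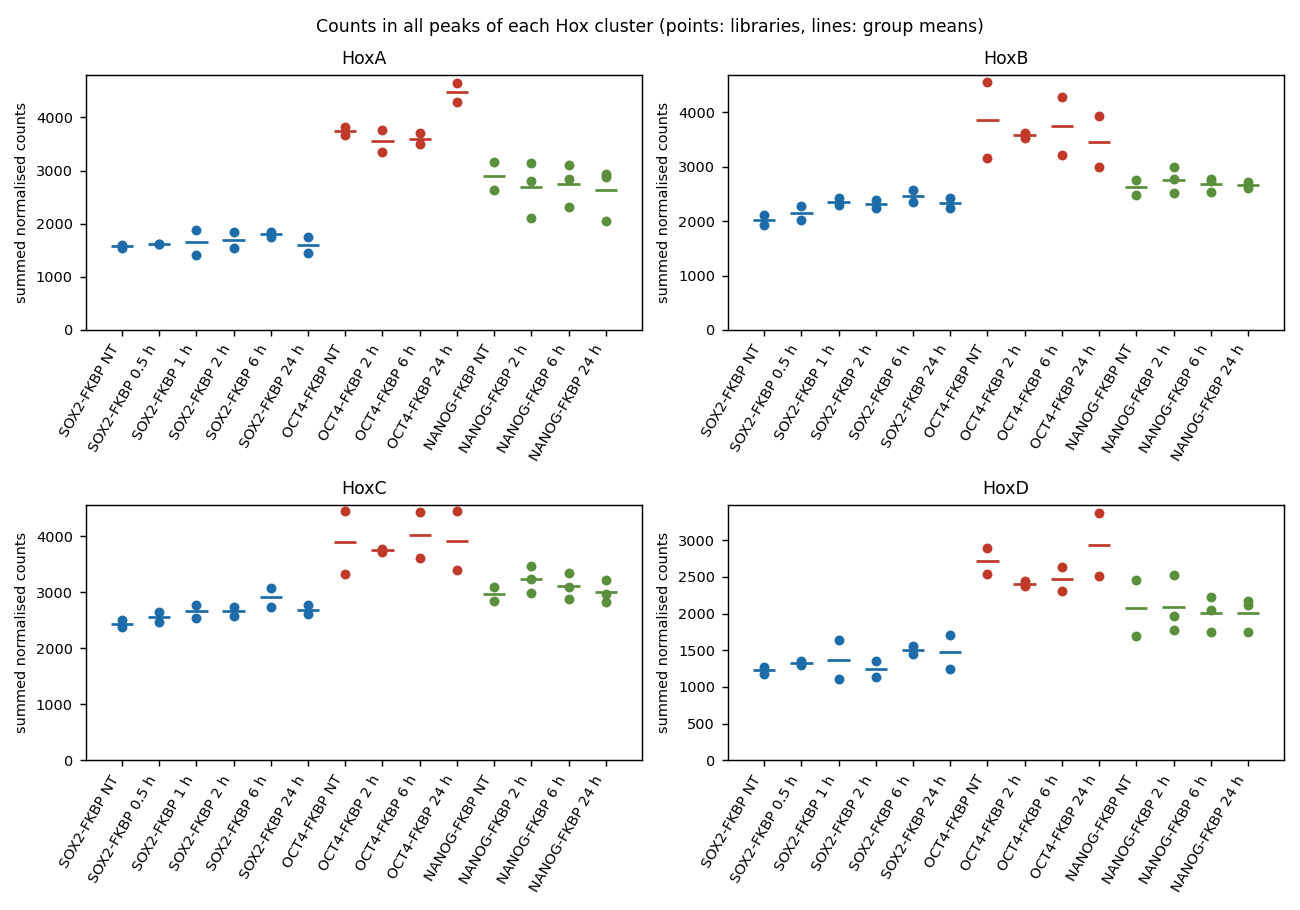
Summed normalised counts (y axis) over all peaks of HoxA, HoxB, HoxC and HoxD in every library, by line and time after dTAG-13 (x axis), with points for libraries and lines for group means. OCT4-FKBP libraries lie above all SOX2-FKBP libraries in each panel, for example 3348 to 4645 against 1415 to 1879 in HoxA.

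Starts of marker genes were compared between the untreated lines as well. The starts of caudal epiblast and early mesoderm genes (T, Cdx1, Cdx2, Cdx4, Tbx6 and Nkx1-2) had a peak at 4 of 6 genes. Their summed normalised counts were 338 to 357 in untreated SOX2-FKBP cells, 737 to 891 in OCT4-FKBP cells and 586 to 759 in NANOG-FKBP cells, and all 4 peaks were higher in untreated OCT4-FKBP than SOX2-FKBP cells. T (brachyury), the mesoderm regulator, differed by 1.17 ± 0.27 on the log2 scale (edgeR adjusted p = 0.0011), Cdx2 by 1.34 ± 0.26 (adjusted p = 0.00015), Cdx4 by 0.73 ± 0.25 (adjusted p = 0.025) and Nkx1-2 by 1.41 ± 0.26 (adjusted p = 8.2e-05). Cdx1 and Tbx6 had no peak within 500 bp of a start. Primitive endoderm genes (Gata4, Gata6, Sox17 and Pdgfra) had sums of 801 to 810, 1134 to 1203 and 988 to 1326 over 7 peaks, with 2 of 7 higher in OCT4-FKBP. Of the 3 start peaks of genes of other lineages, 2 were higher and 1 lower in untreated OCT4-FKBP than SOX2-FKBP cells (median log2 difference 0.73). A rise was thus not particular to the caudal epiblast genes. Of the 9 embryonic stem cell peaks 0 were called in this comparison. The part of these cell states in the Hox difference was not tested.

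At the starts of the Hox genes themselves, 31 of the 38 genes followed here had a peak within 500 bp of an annotated start, in 30 peaks because Hoxd3 and Hoxd4 share one. The 7 genes without one were Hoxa2, Hoxa5, Hoxb1, Hoxb2, Hoxb4, Hoxb8 and Hoxc11, which include most of the anterior HoxB genes. In untreated SOX2-FKBP cells the levels per kb ran from 25.04 normalised counts at Hoxd12 to 175 at Hoxc13, a gene known for its role in hair and nails. Hoxc12 (122) and Hoxb9 (122) followed Hoxc13, and the next gene in the order, Hoxc10, had 68.6. In untreated OCT4-FKBP cells Hoxc13 was again first with 181, followed by Hoxc5 (146), Hoxd11 (135), Hoxc9 (134) and Hoxb9 (129), whose means lie close together.

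Of the 30 start peaks, 23 were higher in untreated OCT4-FKBP than SOX2-FKBP cells and 0 were lower. The largest log2 differences were at Hoxc9 (1.73 ± 0.27, adjusted p = 7.5e-06), which acts in the thorax, Hoxa3 (1.70 ± 0.35, adjusted p = 0.00038) and Hoxa6 (1.67 ± 0.44, adjusted p = 0.0037). The Hoxa3 peak, chr6:52212792-52213229, is 202 bp from an annotated start of that gene that lies between the Hoxa6 and Hoxa7 start peaks. Hoxd11, which patterns the forearm with Hoxa11, followed with 1.61 ± 0.28 (adjusted p = 4.9e-05), and Hoxa10, of the lumbar spine and uterus, with 1.60 ± 0.25 (adjusted p = 8.6e-06). The peaks at Hoxc13 (0.04, adjusted p = 0.92), Hoxb9 (0.07, adjusted p = 0.88) and Hoxc12 (−0.34 ± 0.22, adjusted p = 0.26), the 3 most accessible starts of SOX2-FKBP cells, did not pass the test. NANOG-FKBP levels lay between those of the other lines at most of these starts, for example 72.9 per kb at Hoxc9 against 39.7 and 134, and 82.1 at Hoxd11 against 43.5 and 135.

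**Figure D2:**
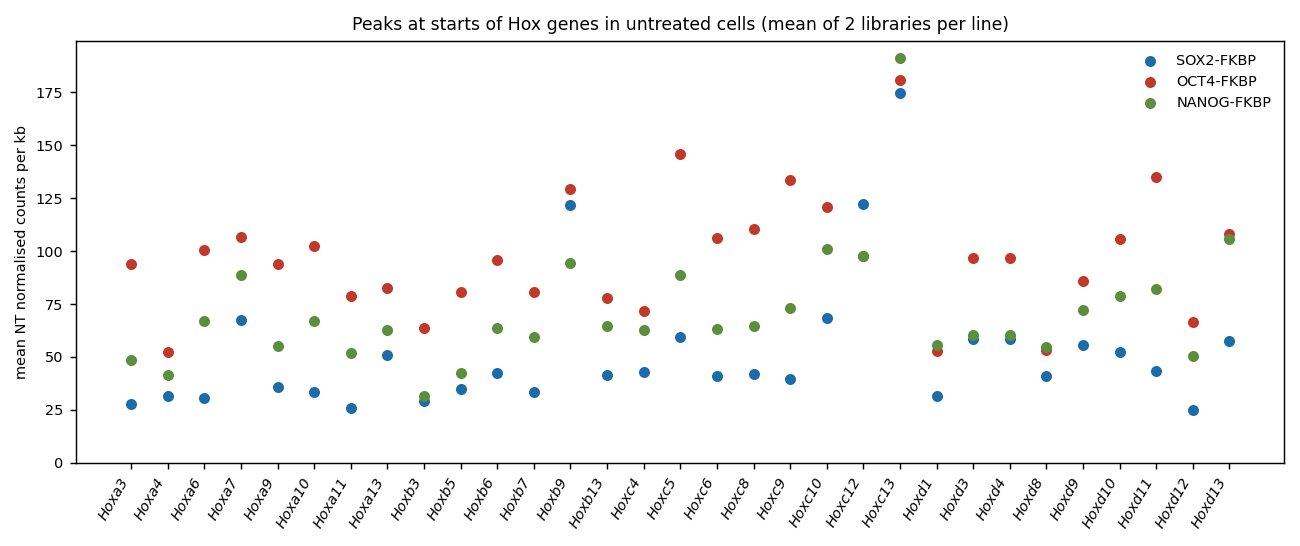
Mean normalised counts per kb (y axis) of the peak at the start of each of 31 Hox genes (x axis, by cluster and paralogue number) in untreated SOX2-FKBP, OCT4-FKBP and NANOG-FKBP cells, 2 libraries each. Most genes are highest in OCT4-FKBP cells, while at Hoxc13 (175, 181 and 191) and Hoxb9 (122, 129 and 94.2) the lines lie closer together than at most starts.

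SOX2 depletion changed few Hox cluster peaks. In the fit of the 12 SOX2-FKBP libraries, 0 of 136 Hox peaks were lost or gained at 0.5 h, where 3 had an unadjusted p below 0.05, against 3.14% lost and 0.158% gained over all 160432 peaks. At 1 h the count was again 0 (4 at an unadjusted p below 0.05), against 5.46% and 0.889%, and DESeq2 also called 0 at both times. In the fit of the 3 lines, 1 of 147 Hox peaks was lost at 2 h (5.06% of all peaks lost, 0.574% gained). At 6 h 1 was lost and 1 gained (6.83% and 1.18%), and at 24 h 2 were lost and 4 gained (10.9% and 4.87%). The share of Hox peaks lost after SOX2 depletion was below that of all peaks at each of the 5 times. Hox peaks lay at starts more often (36.9% against 13.2%), and the shares lost at all starts are not given for SOX2. A low share of losses is therefore not shown to be particular to the Hox clusters. The median log2 change of Hox peaks was 0.03, 0.06, 0.14, 0.27 and 0.14 in time order, with 119 of 147 peaks positive at 6 h. With offsets for GC content the medians were 0.06, 0.12 and −0.10 at 2, 6 and 24 h, so the sign at 24 h depended on the scaling. Medians over all peaks or all starts are not given here. In this line start peaks took 30.7 and 31.0% of the counts untreated and 34.6 and 33.9% at 6 h. The rise is therefore not shown to be particular to the Hox clusters. In the fit blocked on replicate number, which pairs libraries here, the lost and gained counts were 1 and 2 at 2 h, 1 and 5 at 6 h and 4 and 11 at 24 h, and with offsets for GC content as well they were 9 and 4 at 24 h. Those 24 h shares were 2.72% lost and 7.48% gained with the block, against 14.2% and 10.4% of all peaks, and 6.12% and 2.72% with the block and GC offsets, against 13.2% and 9.06%. With GC offsets alone 2 were lost and 1 gained at 24 h, and the count of 6 fell to 2 without SOX2-FKBP NT replicate 1 or 2 and to 3 without either 24 h replicate.

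OCT4 depletion changed more of them, in both directions. At 2 h 5 Hox peaks were lost and 1 gained (5.1% of all peaks lost, 1.92% gained), at 6 h 6 and 1 (7.97% and 4.12%), and at 24 h 16 and 15 (12.7% and 10.8%). The Hox shares at 24 h were 10.9% lost and 10.2% gained, near those of all peaks with this scaling but not with GC offsets. The median log2 change was −0.16 at 2 h, −0.12 at 6 h and 0.04 at 24 h, and with GC offsets −0.27, −0.29 and −0.16. Under the replicate block 9 were lost and 5 gained at 2 h, 15 and 12 at 6 h, and 22 and 23 at 24 h. The split at 24 h depended on the scaling: with GC offsets 27 were lost and 8 gained, which is 18.4% and 5.44% against 11.4% and 10.6% of all peaks. With GC offsets and the block 40 and 17 were called, or 27.2% and 11.6% against 14.6% and 15.1%, and at 6 h in that fit 20.4% and 4.08% against 9.69% and 8.38%. With the block alone the 24 h shares were 14.97% and 15.6% against 15.9% and 15.1%. With total counts as library sizes 18 and 8 were called, or 12.2% and 5.44% against 13.96% and 7.32%. Without OCT4-FKBP NT replicate 1 it was 6 and 9, and without 24 h replicate 1 or 2 it was 11 and 7 or 6 and 13, while at 2 h the count of 6 fell to 2 without NT replicate 1 or either 2 h replicate.

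The calls after 24 h without OCT4 are given by cluster and by the kind of site. HoxA had 1 peak lost and 6 gained (median log2 change 0.23), HoxB 8 and 3 (−0.12), HoxC 3 and 2 (−0.19) and HoxD 4 and 4 (0.01). With GC offsets these were 1 and 1 in HoxA (0.09), 13 and 4 in HoxB (−0.24), 6 and 1 in HoxC (−0.20) and 7 and 2 in HoxD (−0.25), and with total counts 1 and 2, 9 and 1, 4 and 2, and 4 and 3, so the excess of gains in HoxA depended on the scaling. In HoxB the losses were 3 of 15 anterior and 3 of 12 central peaks with 0 gained, and 2 of 19 posterior peaks with 3 gained. At starts 1 of 55 was lost and 8 gained, in introns 8 of 33 were lost and 2 gained, in exons 3 of 24 and 1, and between genes 4 of 35 and 4. Over all peaks tested 12.7% were lost and 10.8% gained, but shares over all intron, exon and intergenic peaks are not given. The counts by kind of site therefore do not show a trait particular to the Hox clusters. In the flanks 17 of 192 were lost and 21 gained (median 0.06). In the SOX2-FKBP line at 24 h HoxA had 0 calls, HoxB 1 lost and 1 gained, HoxC 1 lost and HoxD 3 gained.

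**Figure D3:**
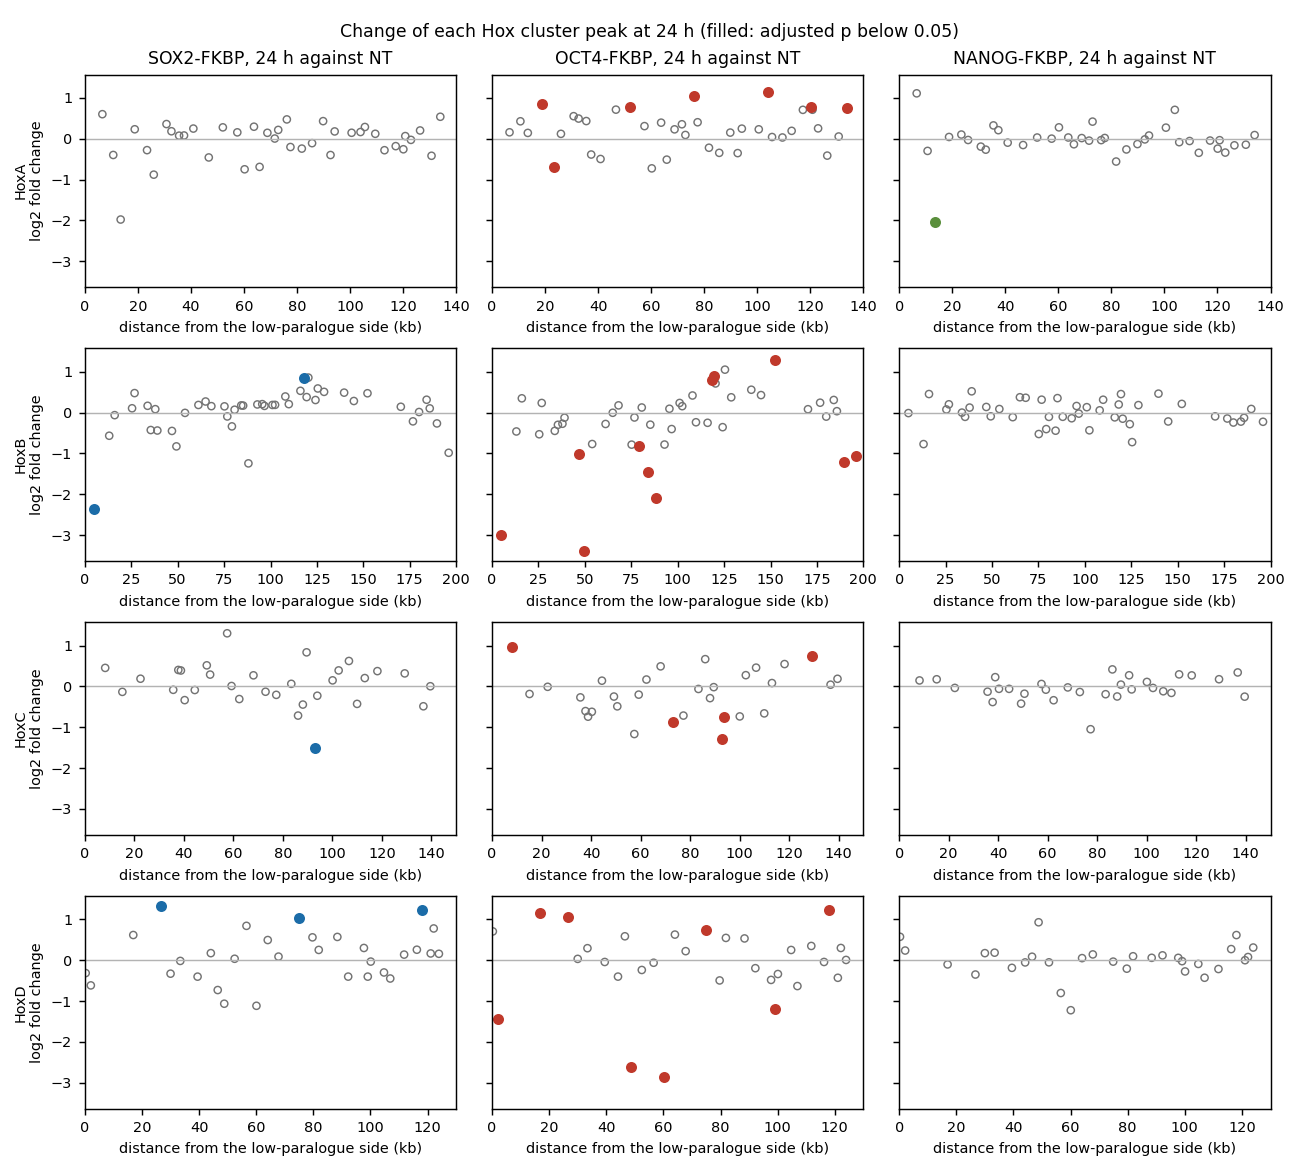
Log2 change after 24 h against untreated cells (y axis) of each tested Hox peak along the 4 clusters (x axis, distance from the low-paralogue side in kb) in SOX2-FKBP, OCT4-FKBP and NANOG-FKBP cells, with filled points for peaks past the test. OCT4-FKBP has 31 called peaks spread over the clusters, SOX2-FKBP 6 and NANOG-FKBP 1.

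After 24 h of OCT4 depletion a smaller share of Hox cluster starts than of all starts was gained. Over all 23428 start peaks tested, 8075 (34.5%) were gained and 1088 (4.64%) lost, with a median log2 change of 0.45, whereas of 55 Hox starts 8 (14.5%) were gained and 1 (1.82%) lost, with a median of 0.12. At starts of Pax, Lhx, Nkx, Irx, Dlx and sine oculis family genes 11 of 47 were gained and 1 lost (0.44), and at the 22 starts in the flanks 3 and 1 (0.46). The share of all counts that fell in start peaks rose from 34.0% in untreated to 44.5% in 24 h OCT4-FKBP libraries, from 30.8 to 37.4% in SOX2-FKBP and from 33.7 to 34.0% in NANOG-FKBP. With GC offsets the Hox starts had 2 gained and 5 lost (median −0.16) and all starts 4796 and 1307 (0.23), so both medians shifted down and the Hox median became negative. With the replicate block the Hox starts had 14 gained and 3 lost and all starts 10530 and 1528, and with total counts 5 and 2 (−0.02) and 5998 and 1308 (0.32). The difference between these sets of starts is described by counts and medians, with no test, since starts of 1 library are not replicates.

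**Figure D4:**
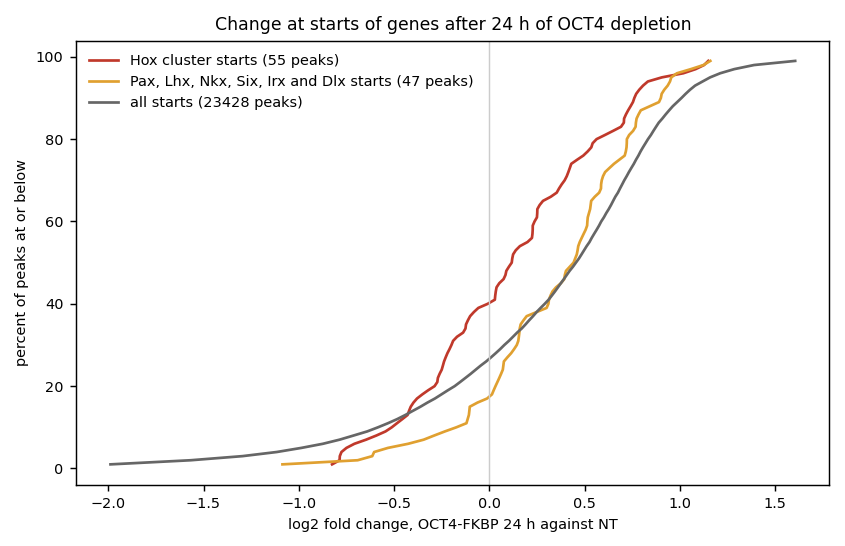
Cumulative percent of start peaks (y axis) at or below a log2 change after 24 h of OCT4 depletion (x axis), for 55 Hox cluster starts, 47 starts of Pax, Lhx, Nkx, Irx, Dlx and sine oculis family genes and 23428 starts in all. The Hox curve crosses the middle at 0.12 and the other curves at 0.44 and 0.45.

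Over all depletion comparisons 34 of the 149 Hox peaks were called at least once and 115 never, and single sites are described next. At 24 h both peaks lost with SOX2 were among the 16 lost with OCT4, and all 4 gained with SOX2 were among the 15 gained with OCT4, that is, each peak of the SOX2 lists but 2 of 16 OCT4 losses and 4 of 15 OCT4 gains. NANOG shared 0 of them. Without OCT4, 4 peaks were lost at each of 2, 6 and 24 h, namely the sites beyond Hoxb1 and beyond Hoxd1 and those in introns of Hoxd3 and Hoxb3, and 1 was gained at each time, the site beyond Hoxc4. For these counts of shared and repeated calls the shares over all peaks are not given. They therefore do not show a trait particular to the Hox clusters.

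The site beyond Hoxb1, a hindbrain patterning gene, was the strongest loss common to SOX2 and OCT4. It spans chr11:96374453-96375426, between genes and 8754 bp from the Hoxb1 start. In OCT4-FKBP cells it held 79.3 and 99.9 normalised counts untreated, 28.3 and 47.2 at 2 h, 22.1 and 22.3 at 6 h, and 9.16 and 13.02 at 24 h. The groups did not overlap at any step, and the level went down at each time. The log2 changes were −1.21 ± 0.30 (adjusted p = 0.0064), −2.01 ± 0.31 (adjusted p = 6.6e-06) and −3.00 ± 0.42 (adjusted p = 6.2e-07). In SOX2-FKBP cells it held 23.1 and 30.3 untreated, 17.1 and 13.1 at 0.5 h, 21.5 and 25.1 at 1 h, 11 and 21.7 at 2 h, 9.71 and 9.05 at 6 h, and 3.05 and 6.77 at 24 h. Its level before treatment was thus lower than in OCT4-FKBP cells by 1.77 ± 0.33 on the log2 scale, and it fell to similarly low counts. The SOX2 changes were −1.46 ± 0.45 at 6 h (adjusted p = 0.034) and −2.35 ± 0.52 at 24 h (adjusted p = 0.00094). In NANOG-FKBP cells it stayed high, with 85.6 and 64.0 untreated and 64.8, 129 and 59.8 at 24 h. The 6 h call with SOX2 was not made without either untreated or either 6 h replicate (−1.34 to −1.74), and the 2 h call with OCT4 was not made without NT replicate 2 (−1.01) or 2 h replicate 1 (−0.91), whereas both 24 h calls were made with every library left out in turn.

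The Hoxd3 intron site, chr2:74730972-74731462, whose sequence above holds 1 SOX and 2 POU matches within 200 bases, lies 1724 bp from a Hoxd3 start. Hoxd3 is known for its role in the neck vertebrae. In OCT4-FKBP cells it held 50.1 and 40.1 normalised counts untreated, 11.7 and 12.5 at 2 h, 9.09 and 9.29 at 6 h, and 7.64 and 6.51 at 24 h. Most of the loss was therefore present at 2 h, with log2 changes of −1.86 ± 0.35 (adjusted p = 0.00032), −2.26 ± 0.36 (adjusted p = 7.7e-06) and −2.62 ± 0.46 (adjusted p = 3.6e-05). These 3 calls were made in each of 37 alternatives. In SOX2-FKBP cells it held 20.4 and 24.5 untreated and 9.16 and 11.6 at 24 h, a change of −1.06 ± 0.44 that did not pass the test (adjusted p = 0.096). In NANOG-FKBP cells it held 22.4 and 6.73 untreated and 29.5, 32.3 and 27.3 at 24 h (0.93 ± 0.41, adjusted p = 0.35), where the untreated libraries lay far apart.

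The Hoxd4 intron site, chr2:74719800-74720019, has 2 SOX matches and lies 2058 bp from a Hoxd4 start. It held 28.4 and 30.5 normalised counts in untreated OCT4-FKBP cells, 11.7 and 20.996 at 2 h, 5.84 and 13.01 at 6 h, and 3.05 and 4.88 at 24 h. The change was −1.61 ± 0.39 at 6 h (adjusted p = 0.0032; −1.16 and not called without 6 h replicate 1) and −2.85 ± 0.59 at 24 h (adjusted p = 0.00035). In SOX2-FKBP cells the 24 h change was −1.11 ± 0.71 (adjusted p = 0.32). Further along HoxD, the intergenic site chr2:74777694-74778175 lies 14920 bp beyond the Hoxd1 start. It held 36.7 and 25.4 in untreated OCT4-FKBP cells and 14.7 and 9.19, 10.4 and 14.9, and 12.2 and 9.76 at the 3 times, so that it was lower from 2 h on without a further fall. Its changes were −1.39 ± 0.36, −1.25 ± 0.34 and −1.44 ± 0.42 (adjusted p at 24 h = 0.010). None of the 3 was called without NT replicate 1 (−1.13, −0.99 and −1.18). In SOX2-FKBP cells it held 16.9 and 11.5 untreated, 6.00 and 2.61 at 2 h and 9.16 and 9.67 at 24 h, and it was the peak called at 2 h (−1.76 ± 0.53, adjusted p = 0.039). That call was not made without NT replicate 1 (−1.50) or 2 h replicate 2 (−1.33).

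In HoxB the losses without OCT4 included introns of Hoxb3 and Hoxb6, genes of the hindbrain and the thorax. The Hoxb3 site chr11:96330382-96330808 held 67.6 and 22.01 normalised counts untreated, 21.5 and 15.1 at 2 h, 24.0 and 13.01 at 6 h, and 3.05 and 4.88 at 24 h. The untreated libraries lay far apart, and without NT replicate 1 the 2 h and 6 h changes of −1.25 ± 0.39 and −1.21 ± 0.37 became −0.29 and −0.25 and were not called. The 24 h change of −3.39 ± 0.60 (adjusted p = 4e-05) was called in each alternative. At the Hoxb6 intron site the values were 27.5 and 21.4 untreated and 4.58 and 6.51 at 24 h (−2.09 ± 0.60, adjusted p = 0.0088; −1.84 and not called without 24 h replicate 1). The site 3952 bp from the Hoxb13 start, chr11:96189964-96190739, was chosen after its values were seen, since its values lay above the untreated ones at 2 and 6 h and below them at 24 h. It held 149 and 148 untreated, 194 and 210 at 2 h, 221 and 204 at 6 h, and 70.3 and 56.9 at 24 h. Its call was a loss at 24 h (−1.20 ± 0.26, adjusted p = 0.00049).

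In HoxC the loss common to SOX2 and OCT4 at 24 h was in an exon of Hoxc11, chr15:102956941-102957313. It held 27.5 and 10.1 normalised counts in untreated and 8.14 and 5.80 in 24 h SOX2-FKBP cells (−1.51 ± 0.51, adjusted p = 0.038), and 66.7 and 32.7 against 19.9 and 19.5 in OCT4-FKBP cells (−1.28 ± 0.40, adjusted p = 0.016). The untreated replicates lay far apart in each line. Without NT replicate 1 the changes were −0.57 and −0.72, and neither was called, nor were they called by DESeq2.

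**Figure D5:**
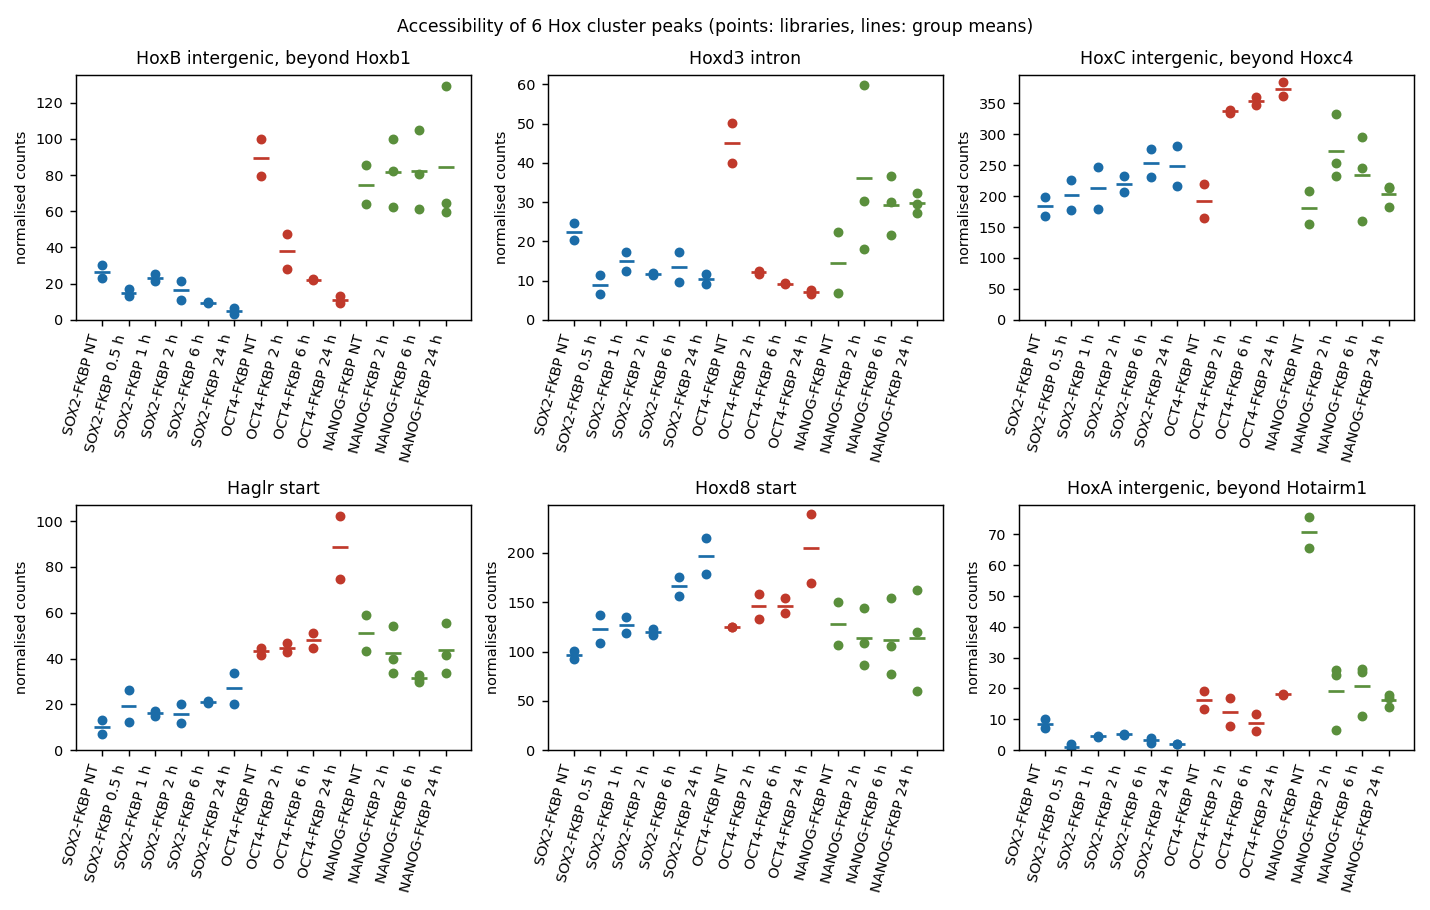
Normalised counts (y axis, from 0) of single Hox cluster sites in every library, by line and time after dTAG-13 (x axis), with points for libraries and lines for group means. The site beyond Hoxb1 falls to 9.16 and 13.02 in OCT4-FKBP cells and 3.05 and 6.77 in SOX2-FKBP cells at 24 h while NANOG-FKBP libraries stay between 59.8 and 129.

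Of the 15 sites gained at 24 h without OCT4, 8 lay at starts, 4 of them at starts of the Hox genes followed here. The site beyond Hoxc4, chr15:103040772-103042814, which is intergenic and 7377 bp from the Hoxc4 start, was the earliest gain. It held 165 and 220 normalised counts in untreated OCT4-FKBP cells, 339 and 335 at 2 h, 348 and 361 at 6 h, and 385 and 361 at 24 h. The treated groups lay above the untreated one from 2 h on, by 0.81 ± 0.23 (adjusted p = 0.018), 0.88 ± 0.22 (adjusted p = 0.0048) and 0.96 ± 0.23 (adjusted p = 0.0016). The first 2 were not called without NT replicate 1 (0.62 and 0.69), nor the 2 h call without either 2 h replicate (0.80 and 0.84). In SOX2-FKBP cells it went from 199 and 167 to 281 and 217 at 24 h (0.45 ± 0.23, adjusted p = 0.20), and in NANOG-FKBP cells it held 208 and 155 untreated and 215, 212 and 182 at 24 h.

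The start of Haglr, a long non-coding RNA between Hoxd1 and Hoxd3 (chr2:74752653-74753655), was gained in both lines. It held 13.3 and 7.22 normalised counts in untreated and 20.4 and 33.8 in 24 h SOX2-FKBP cells (1.33 ± 0.39, adjusted p = 0.015), and 41.7 and 44.6 against 102 and 74.8 in OCT4-FKBP cells (1.05 ± 0.28, adjusted p = 0.0042). Groups did not overlap in either line. In NANOG-FKBP cells it held 43.5 and 58.9 untreated and 33.6, 55.4 and 41.6 at 24 h. With GC offsets neither gain was called. Without NT replicate 2 or 24 h replicate 2 the SOX2 gain was 1.00 or 0.92 and not called, and without 24 h replicate 1 the OCT4 gain was 0.82 and not called. At the start of Gm53 in HoxB, chr11:96261249-96261985, a predicted gene, the values were 54.2 and 60.6 against 113 and 89.0 in SOX2-FKBP (0.84 ± 0.25, adjusted p = 0.014) and 65.9 and 56.4 against 113 and 96.0 in OCT4-FKBP cells (0.80 ± 0.24, adjusted p = 0.013). Here, too, groups did not overlap. The SOX2 gain was not called without either NT replicate (0.69 and 0.87) or 24 h replicate 1 (0.62), and the OCT4 gain not without NT replicate 2 (0.66) or 24 h replicate 1 (0.68).

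On the posterior side of HoxD, 2376 bp from the Evx2 start, the site chr2:74661655-74662082 went from 8.88 and 14.4 to 25.5 and 26.1 normalised counts in SOX2-FKBP (1.22 ± 0.42, adjusted p = 0.040) and from 22.5 and 34.4 to 62.6 and 71.6 in OCT4-FKBP cells (1.22 ± 0.31, adjusted p = 0.0032). Evx2 is a homeobox gene next to Hoxd13. The SOX2 call was lost in 17 of 37 alternatives, among them DESeq2 and the fit without NT replicate 1 (0.79), and the OCT4 call without NT replicate 1 (0.97). In HoxA the start of Hotairm1, an antisense RNA of the low-paralogue end, went from 280 and 328 to 530 and 552 in OCT4-FKBP cells (0.84 ± 0.20, adjusted p = 0.0014), a call that was not made with GC offsets. The start of Hoxa11os, an antisense RNA to Hoxa11, went from 81.8 and 43.4 to 160 and 106 (1.13 ± 0.34), and was not called without NT replicate 2 (0.70) or 24 h replicate 1 (0.81). The 1 loss in HoxA was in an exon near Hoxa2, with 129 and 124 against 85.5 and 69.97 (−0.68 ± 0.25), and it was not called in 12 of 37 alternatives, among them DESeq2 and the fits without any 1 of the 4 libraries compared (−0.55 to −0.83). The HoxB intergenic site chr11:96226852-96228114 went against the line difference, with 45.3 and 36.1 in untreated SOX2-FKBP but 15.9 and 12.98 in untreated OCT4-FKBP cells (−1.53 ± 0.36), and rose to 32.1 and 37.4 after 24 h without OCT4 (1.29 ± 0.39). That gain was not called without NT replicate 2 (1.12) or 24 h replicate 2 (1.18).

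Among the 30 peaks at starts of Hox genes, 1 was lost and 4 gained after 24 h of OCT4 depletion, 1 was gained after SOX2 depletion and 0 were called after NANOG depletion. Hoxd1, the low-paralogue end of HoxD, went from 101 and 87.5 to 246 and 171 normalised counts in OCT4-FKBP cells (1.17 ± 0.24, adjusted p = 0.00032), a gain called in each alternative. In SOX2-FKBP cells it went from 52.4 and 59.2 to 69.2 and 98.6 (0.62 ± 0.27, adjusted p = 0.12). Hoxd8, the one central gene of HoxD, was the Hox gene start gained with SOX2, from 100 and 92.4 untreated to 176 and 156 at 6 h and 178 and 215 at 24 h (1.04 ± 0.27, adjusted p = 0.0053). It was gained in OCT4-FKBP cells too, from 125 and 125 to 240 and 169 (0.73 ± 0.26, adjusted p = 0.040), but this call was lost in 16 of 38 alternatives, and neither was called with GC offsets. The other gains with OCT4 were Hoxa4 (0.77 ± 0.26, adjusted p = 0.026) and Hoxc13, from 371 and 350 to 762 and 438 (0.75 ± 0.23, adjusted p = 0.013). The gains at Hoxa4 and Hoxc13 were not called with GC offsets or without 24 h replicate 1 (0.63 and 0.31), nor at Hoxa4 without NT replicate 1 (0.60) or at Hoxc13 without NT replicate 2 (0.69). Hoxc9 was the start lost, from 361 and 231 to 194 and 124 (−0.87 ± 0.26, adjusted p = 0.012), a call not made without NT replicate 1 (−0.53) or 24 h replicate 2 (−0.59). This loss and the higher untreated level of Hoxc9 in OCT4-FKBP cells rest on the same untreated libraries.

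NANOG depletion changed 1 Hox cluster peak, the same at each time. At 2, 6 and 24 h 1 of 147 was lost and 0 gained, against 0.938%, 1.08% and 2.25% of all peaks lost and 0.0162%, 0.0367% and 0.288% gained, and 3, 6 and 8 Hox peaks had an unadjusted p below 0.05. The site, chr6:52153208-52153567, is intergenic in HoxA, 3395 bp from the Hotairm1 start and 11324 bp from Hoxa2. It held 75.8 and 65.6 normalised counts in untreated NANOG-FKBP cells, 24.5, 6.64 and 26.1 at 2 h, 25.3, 10.99 and 26.3 at 6 h, and 18.0, 13.8 and 16.9 at 24 h. All 9 treated libraries lay below both untreated ones. The changes were −1.64 ± 0.33 (adjusted p = 0.0050), −1.63 ± 0.33 (adjusted p = 0.0033) and −2.05 ± 0.34 (adjusted p = 0.00011). The first 2 were not called without NT replicate 1 (−1.53 and −1.52), nor the 2 h change without 2 h replicate 1 (−1.79), and the 24 h change was called in each alternative. Without NT replicate 1 the 24 h count was 2 lost. In OCT4-FKBP cells the site was low before treatment and stayed there, with 13.3 and 19.2 untreated and 18.3 and 17.9 at 24 h. In SOX2-FKBP cells it held 7.11 and 10.1 untreated and 2.04 and 1.93 at 24 h (−1.98 ± 0.72, adjusted p = 0.054). Untreated NANOG-FKBP cells were higher than SOX2-FKBP cells by 3.08 ± 0.40 and OCT4-FKBP cells lower than NANOG-FKBP cells by a log2 difference of −2.10 ± 0.33, where the median Hox peak was higher in OCT4-FKBP cells (0.46).

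Whether the 24 h changes differed between lines was tested as the difference of the changes. Between SOX2 and OCT4 depletion, 0 of 147 Hox peaks differed by edgeR (14 at an unadjusted p below 0.05, 0 by DESeq2 and 3 with the replicate block), against 1.67% of all peaks lower with SOX2 and 1.1% higher. At the site beyond Hoxb1 that difference was 0.64 ± 0.78 (adjusted p = 0.77). Between SOX2 and NANOG depletion 2 were lower and 1 higher, against 5.59% and 1.19%. The lower ones were the site beyond Hoxb1 (−2.34 ± 0.61, adjusted p = 0.011) and the Hoxd3 intron (−1.99 ± 0.60, adjusted p = 0.033), and the higher one was the Haglr start (1.68 ± 0.50, adjusted p = 0.029). Between OCT4 and NANOG depletion 5 were lower and 3 higher, against 6% and 2.89%. With the replicate block, which joined NANOG-FKBP libraries by number only, 6 were lower and 9 higher. The Hoxd3 intron (−3.55 ± 0.63, adjusted p = 0.00011), the Hoxb3 intron (−3.30 ± 0.91, adjusted p = 0.015) and the site beyond Hoxb1 (−2.98 ± 0.53, adjusted p = 0.00012) had the largest differences. These comparisons share libraries, so their calls are given side by side. The SOX2 and NANOG count of 3 fell to 1 without SOX2-FKBP 24 h replicate 1 or 2 or NANOG-FKBP NT replicate 2, and the OCT4 and NANOG count of 8 to 5 without OCT4-FKBP NT replicate 1, OCT4-FKBP 24 h replicate 1 or NANOG-FKBP 24 h replicate 1.

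Genes that act with or upstream of Hox genes were followed at their starts. Pbx, Meis and Pknox proteins (TALE homeodomain factors) bind DNA together with Hox proteins. All 9 genes had start peaks, 16 in all, of which 5 were gained and 1 lost after 24 h without OCT4 and 0 were called after 24 h without SOX2 or NANOG. The share gained without OCT4 was a little below that of all starts, given above, and the share lost, from 1 peak, a little above. Their median log2 change without OCT4 was 0.46, against 0.45 at all starts. A share at all starts is not given for SOX2 and NANOG depletion. Those that rose included Pbx2 (0.86 ± 0.26) and peaks of Pknox1 (0.84 ± 0.22) and Meis3 (0.78 ± 0.29), and another Pknox1 peak fell (−1.64 ± 0.37). Between untreated OCT4-FKBP and SOX2-FKBP cells 4 of the 16 were higher, among them Meis1 (1.53 ± 0.40) and a Meis2 peak (1.31 ± 0.30).

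Cdx factors, which activate trunk Hox genes, had peaks at 2 of 3 starts. Cdx4 fell, with log2 changes of −0.83 ± 0.28 after 24 h without SOX2 and −1.04 ± 0.26 without OCT4, while Cdx2 had changes of 0.31 ± 0.27 and 0.12 ± 0.24 that did not pass the test. Of the genes of the retinoic acid pathway 15 of 16 had start peaks, with 22 peaks tested. Of these, 2 were lost and 2 gained after 24 h without SOX2, 3 and 3 without OCT4, and 1 and 0 without NANOG. For SOX2 and NANOG a share at all starts is not given. Over all peaks 10.9% were lost and 4.87% gained without SOX2, and 2.25% and 0.288% without NANOG. Without OCT4 a smaller share was gained and a larger share lost than at all starts. The median log2 change there was 0.38, against 0.45 at all starts. Rdh10, which makes the retinaldehyde precursor, was lost in every line (−2.12 ± 0.29 with SOX2, −2.84 ± 0.32 with OCT4 and −0.86 ± 0.25 with NANOG). A Rarg peak, at the start of a retinoic acid receptor gene, fell too (−1.39 ± 0.37 with SOX2 and −2.36 ± 0.37 with OCT4). Rxrb rose by 0.66 ± 0.22 and 1.00 ± 0.22. Aldh1a3, which makes retinoic acid, rose with SOX2 loss (1.52 ± 0.32), and Cyp26b1, which degrades it, with OCT4 loss (1.03 ± 0.28). Of the even-skipped genes beside the clusters, Evx2 had a start peak, which was higher in untreated OCT4-FKBP than SOX2-FKBP cells (1.53) and was not called in any depletion (−0.43 ± 0.30 after 24 h without OCT4).

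The marker sums over time moved with the depletions as follows. The caudal epiblast sum went from 737 to 891 in untreated to 436 to 710 in 24 h OCT4-FKBP cells, with 2 of 4 peaks lost, and from 338 to 357 to 245 to 278 in SOX2-FKBP cells, also with 2 of 4 lost. The primitive endoderm sum was 1404 to 1966 after 24 h without OCT4 against 1134 to 1203 untreated, with 3 of 7 peaks gained (median log2 change 0.54, against 0.45 at all starts). The embryonic stem cell sum was 1889 to 2239 against 2243 to 2373, with 2 of 9 lost and 2 gained, and that of other lineages 223 to 251 against 179 to 218, with 0 of 3 called. Shares at all starts without OCT4 are given above. For SOX2 depletion a share at starts is not given, and over all peaks 10.9% were lost and 4.87% gained. With so few peaks these counts do not show a trait of the marker lists. The part of these marker genes in the Hox changes was not tested.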

How the data were processed

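The authors aligned paired-end ATACseq reads to mm10 with BWA 0.7.17-r1188, filtered them with SAMtools 1.10, removed duplicates with Picard 2.12.0, ran MACS2 on the pooled libraries of all lines and times, and counted the fragments over each peak. The deposited counts are raw whole numbers. The deposited peak list also gives, as the authors' values for the merged libraries, a fold enrichment, −log10 p and q values and a score, none of which was used to compare samples. Of 45 samples, 31 have a count column, and the other 14 were not analysed here. No column of another series was used.

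Summits, sequence and gene starts were read from GRCm38 with GENCODE vM21, the build of the files, and 0 peaks ended past a reference chromosome. A start peak has its summit within 500 bp of an annotated start. Patterns were searched on both strands, SOX matches may overlap POU matches, and the CTCF pattern was loosened after the first one gave 0 matches. The members, lists and patterns were chosen with earlier results of these data known.

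The test was edgeR 4.0.16 under R 4.3.3, by glmQLFit and glmQLFTest after TMM scaling, with p-values adjusted by Benjamini-Hochberg over every peak in the fit and called below 0.05. The 0.5 and 1 h comparisons used the 12 SOX2-FKBP libraries and the 160432 peaks that passed 10 counts in at least 3 of them. All others used 27 libraries and the 166430 peaks that passed 10 counts in at least 7 of these. Errors beside log2 changes are standard errors from that test, and normalised counts are on a TMM scale over the 31 libraries. Peaks named are those at the starts of the 38 genes, the 3 largest gains and losses per cluster at 24 h in SOX2-FKBP and OCT4-FKBP cells among called peaks with a mean of at least 20 normalised counts in the higher group and 1 direction in every replicate, all peaks called with NANOG or at 0.5 or 1 h, and the highest peak of each cluster. The site near Hoxb13 was chosen after its values were seen. The single peaks named at starts of TALE and retinoic acid pathway genes also lie outside this rule, and were named with their values known. Alternatives were DESeq2 1.42.0 with its own size factors, total counts, GC offsets over 20 bins, other count filters, each line alone, a replicate block, and each library left out, with chromosome offsets and the fit without the 3 shallow libraries added after seeing the data. The test was checked on simulated data.

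Replicate numbers are shared between times. After removal of group means, same-numbered libraries correlated positively for each pair of conditions in SOX2-FKBP (0.123 to 0.491) and OCT4-FKBP (0.336 to 0.603), and these were taken as paired in the fits with a replicate block. The main fit held no replicate term, so its counts, errors and adjusted p-values do not use this pairing. In NANOG-FKBP the untreated with treated correlations were −0.116 to 0.360, and these were not taken as paired. The block fits nevertheless held replicate terms for this line too, and joined untreated replicate 2 with treated replicate 2. By the share of counts on chromosome 8, untreated replicate 2 (7.10%) stood with treated replicate 3 (7.00 to 7.08%). The other NANOG-FKBP libraries had 5.51 to 5.80%. Block counts that involve NANOG-FKBP therefore rest on a pairing by number that these shares do not follow. The study's methods give duplicates for each line and an independent clone for SOX2, but neither they nor the labels say whether replicates were separate cultures, so p-values measure the spread between these libraries, which may be technical. Total counts of 1817191 to 17575631 limit the precision of weak peaks, and intervals cover only that spread.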

Additional observations from a re-analysis of the deposited data

Results flagged for a closer look

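The 24 h changes of 8 Hox cluster peaks differed between NANOG depletion and the depletion of SOX2 or OCT4, by edgeR's test of the difference itself. With SOX2 minus NANOG, the site beyond Hoxb1 differed by −2.34, the Hoxd3 intron by −1.99 and the Haglr start by 1.68 on the log2 scale. With OCT4 minus NANOG, the Hoxd3 intron differed by −3.55, the Hoxb3 intron by −3.30, the site beyond Hoxb1 by −2.98, the site beyond Hoxd1 by −1.68 and the site near Hoxb13 by −1.29. In the other direction, the HoxA intergenic site beyond Hotairm1 differed by 2.19, the Haglr start by 1.40 and the Hoxd1 start by 1.27. The Hoxd3 intron difference between SOX2 and NANOG was not called with DESeq2 or GC offsets, nor without either untreated or either 24 h SOX2-FKBP replicate (−1.87 to −2.19), NANOG-FKBP NT replicate 2 (−1.46) or NANOG-FKBP 24 h replicate 1 (−2.01). The site beyond Hoxb1 kept its SOX2 minus NANOG call except without SOX2-FKBP 24 h replicate 1 (−1.93), and its OCT4 minus NANOG call with each library left out. The difference at the site beyond Hoxd1 was lost in 17 of 36 alternatives. No group had 4 or more libraries, so single libraries were not compared with their group.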

How the results depend on the processing

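Of the values called at the 48 named peaks, 105 in all, 32 were called in each alternative, and of their 3747 values under alternatives 3372 kept the call, 375 lost it and 0 changed direction. The counts of Hox peaks called moved by over 1.5 times as follows, with both directions summed. DESeq2 gave 0 after 2 h and 0 after 6 h of SOX2 depletion (from 1 and 2), 1 for SOX2 against NANOG (from 3) and 9 for untreated OCT4-FKBP against NANOG-FKBP (from 19). Total counts gave 0 after 2 h of SOX2 depletion and 16 for untreated NANOG-FKBP against SOX2-FKBP (from 31). GC offsets gave 0, 0 and 3 after 2, 6 and 24 h of SOX2 depletion (from 1, 2 and 6), 11 after 6 h of OCT4 depletion (from 7), 1 for SOX2 against NANOG and 15 for untreated NANOG-FKBP against SOX2-FKBP. The filter of at least 10 counts in every library left 47 Hox peaks to test, and gave 0, 0 and 1 for SOX2, 1, 2 and 13 for OCT4 and 0, 0 and 0 for NANOG depletion at 2, 6 and 24 h, 0 for SOX2 against NANOG, 3 for OCT4 against NANOG, and 27, 2 and 6 for the untreated lines. Each line alone gave 4 and 11 after 6 and 24 h of SOX2 depletion.

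The replicate block gave 3, 6 and 15 for SOX2 at 2, 6 and 24 h, 14 and 27 for OCT4 at 2 and 6 h (from 6 and 7), 2 for NANOG at 24 h (from 1), 3 for SOX2 against OCT4 (from 0), 5 for SOX2 against NANOG and 15 for OCT4 against NANOG (from 8). The replicate block with GC offsets gave 1, 2, 4 and 13 for SOX2 at 1, 2, 6 and 24 h, 20, 36 and 57 for OCT4 at 2, 6 and 24 h, 2 for NANOG at 24 h, 4 for SOX2 against OCT4 and 17 for OCT4 against NANOG. The block moved no other count by over 1.5 times. Its counts that involve NANOG-FKBP rest on replicate numbers that were not taken as paired in that line. The cause of these differences was not tested. With each library left out in turn, the counts ran from 0 to 0, 0 to 1, 0 to 1, 0 to 3 and 2 to 7 for SOX2 in time order, from 2 to 6, 6 to 10 and 15 to 33 for OCT4, from 0 to 1, 0 to 1 and 1 to 2 for NANOG, from 0 to 0, 1 to 3 and 5 to 11 for SOX2 against OCT4, SOX2 against NANOG and OCT4 against NANOG, and from 69 to 113, 3 to 36 and 2 to 29 for untreated OCT4-FKBP against SOX2-FKBP, NANOG-FKBP against SOX2-FKBP and OCT4-FKBP against NANOG-FKBP. With 1 library left in a group, that library is assumed to vary like the others. The share of Hox peaks at starts was 50.3% with a distance of 1000 bp, against 36.9%. Groups of 2 libraries leave weak Hox peaks with few counts unable to pass the test, so a missing call does not show that a peak did not change.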
